A study of Homo sapiens with 6 samples.

Results

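The genes described here are 35 interferon-stimulated genes, a list of known names (the IFIT, OAS, MX and GBP families, the ISG15 system, the factors STAT2, IRF1, IRF7 and IRF9, and other effectors). They were chosen by name among the 57773 Ensembl gene IDs of the deposited table, and all 35 matched an ID. The cells are RPE1, an immortalised human line from retinal pigment epithelium. Cells received 2.5 µM Nutlin-3 for 24 h (3 libraries) or, as controls, the solvent DMSO for 24 h (3 libraries), and both groups were grown in DMEM with fetal bovine serum. Nutlin-3 is a small molecule that blocks the binding of p53 by MDM2, the ligase that keeps p53 low, and the series asks which genes p53 controls. The labels name no added interferon.

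Interferons are secreted proteins that signal through cell surface receptors and, for type I interferon, the kinases JAK1 and TYK2. Type I interferon acts through the factor ISGF3, of which STAT2 and IRF9 are subunits and which binds the interferon-stimulated response element (ISRE) in promoters and turns on genes that block viral replication. Cells also keep a low, constitutive level of these transcripts without added interferon. A few of the genes are known direct targets of p53 as well. Among the 35, TRIM22, IRF9 and ISG15 are taken as such here, from background knowledge and not from these libraries.

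The values are RPKM, a read count scaled by gene length and library size, as the authors deposited them. The length is that of the whole gene, introns included, so RPKM of a long gene is low for its reads, and whole reads per gene were recovered from the table. The recovered reads came to 32.2, 37.0 and 31.6 M in the Nutlin-3 libraries and 41.1, 28.4 and 31.4 M in the DMSO libraries (M, mega). The authors scaled by other totals, lower in each Nutlin-3 library (31.6, 35.8 and 30.4 M) and higher in each DMSO library (42.3, 29.8 and 32.4 M). Compared with scaling by recovered reads, this places RPKM higher with Nutlin-3 and lower with DMSO. The fit on the reads used the same totals. Scaling by the recovered totals was not tried. Other scalings were, and some calls of small changes differed under them, as given at the end. CDKN1A, the p53 target that encodes p21, averaged 60.5 ± 2.34 RPKM with Nutlin-3 and 8.36 ± 0.463 RPKM with DMSO (SD, n = 3 each). MDM2 averaged 8.46 ± 0.225 RPKM with Nutlin-3 and 2.31 ± 0.0866 RPKM with DMSO. Of 8 markers of mature retinal pigment epithelium, OTX2 and MITF had a mean of more than 100 reads, while RPE65 had a mean of 1.00 read and TTR had 0 reads in every library. OTX2 fell to 81.9% of its DMSO level (limma adjusted p = 0.0233). Of 3 cytoskeletal markers, the epithelial keratins KRT8 and KRT18 rose 1.68-fold and 1.74-fold (limma adjusted p = 6.07e-05 and 1.62e-04). The mesenchymal VIM averaged 445 ± 15.5 RPKM with Nutlin-3 and 474 ± 24.1 RPKM with DMSO (limma adjusted p = 0.164, and 0.0324 on the reads). The part of these markers in the results below was not tested. Of 7 markers of immune cells, CD3E and NKG7 were at 0 in all libraries. The summed reads of all 7 were between 33 and 40 in the Nutlin-3 libraries and between 43 and 50 in the DMSO libraries, with most of them in LYZ.

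With Nutlin-3, the interferon-stimulated genes split. TRIM22 rose 3.80-fold, ISG15 1.66-fold, STAT2 1.397-fold, IFIT2 1.39-fold, GBP1 1.36-fold and SAMD9L 1.31-fold, as ratios of mean RPKM. OAS3 fell to 53.8% of its DMSO level, IFI44L to 79.3%, IFI44 to 82.4%, DTX3L to 83.0% and IFIT3 to 83.8%. The other 8 tested genes did not pass. Since these are bulk samples, fewer cells of a kind and less RNA per cell cannot be told apart. The test was limma on log2(RPKM + 0.5) over the 12212 genes that averaged 0.5 RPKM or more, with Benjamini-Hochberg adjustment and a threshold of 0.05.

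That fit tested 19 of the 35 genes, of which 6 rose and 5 fell. Among all 12212 genes tested, 51.6% passed, 29.1% upwards and 22.5% downwards, so the share of interferon-stimulated genes that passed was near that of all genes. Their median log2 fold change was 0.10, against 0.02 over all genes tested. On the recovered reads, limma voom tested 30 of the 35 genes and called 10 upwards and 9 downwards. Among all 20732 genes of that fit 50.3% passed, 26.0% upwards and 24.3% downwards. The median log2 fold change of the 30 genes on reads was -0.04, against 0.00 over all genes of the fit. In 20 of these 30 genes the Nutlin-3 and DMSO libraries did not overlap in RPKM, against 56.6% of the 20732 genes. All 11 genes called on RPKM were called in the same direction on the reads.

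**Figure D1:**
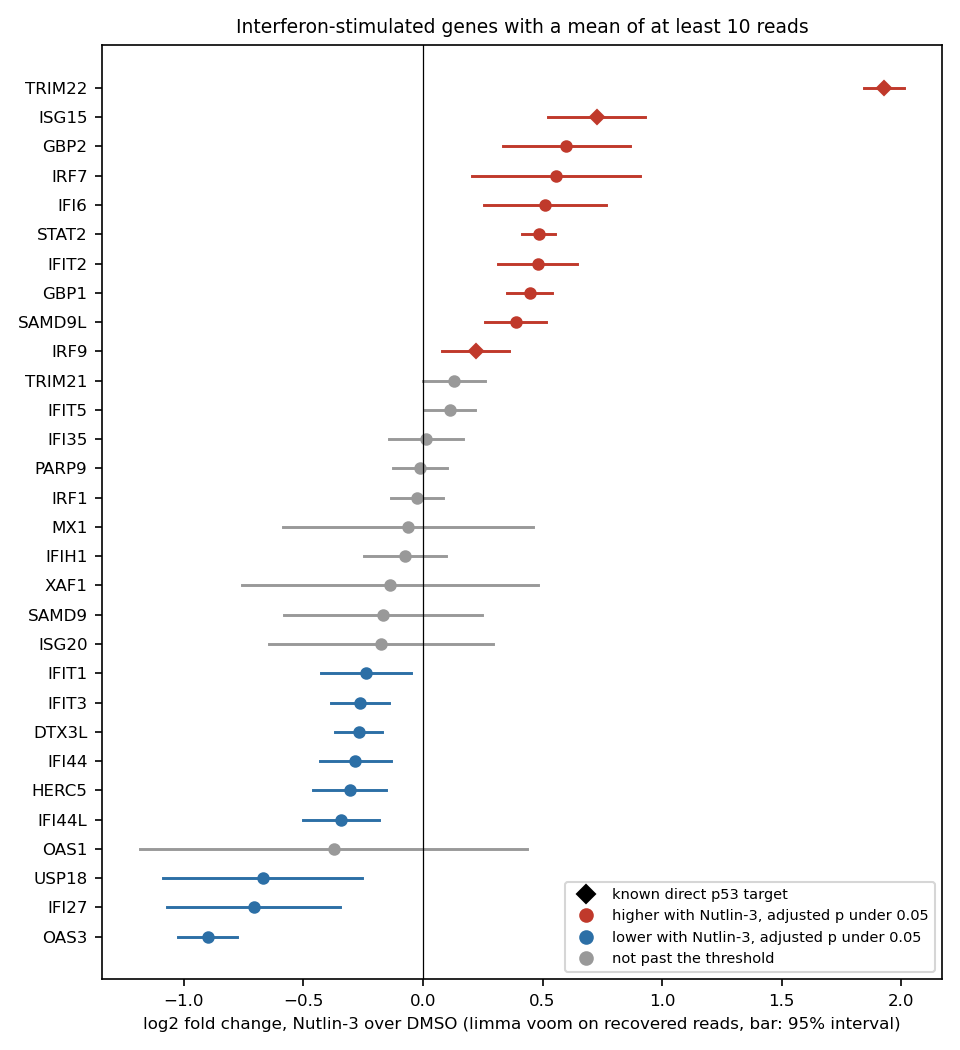
Log2 fold change, Nutlin-3 over DMSO, of the 30 interferon-stimulated genes that averaged 10 reads or more, from limma voom on the recovered reads. Points are estimates, bars are 95% intervals, diamonds are known direct p53 targets, red and blue mark genes past the threshold, and TRIM22 at 1.93 stands far from ISG15 at 0.73.

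TRIM22, a ubiquitin ligase of the tripartite motif family that restricts viruses and carries a known p53 site, was the largest change. TRIM22 (ENSG00000132274) had 3.16, 3.25 and 3.21 RPKM in the Nutlin-3 libraries, against 0.822, 0.836 and 0.871 RPKM in the DMSO libraries. Its recovered reads were 4724, 5514 and 4620 with Nutlin-3, against 1646, 1181 and 1338 with DMSO. The groups were far apart and tight within themselves. The change was 1.46 on log2(RPKM + 0.5) (SE 0.025, limma adjusted p = 2.36e-05) and 1.93 on the reads (95% interval from 1.85 to 2.01). Another gene, OR56B1, covers 10.7% of the exon length of TRIM22 on the same strand. TRIM21, a cytosolic antibody receptor of the same ligase family, averaged 1.795 ± 0.0804 RPKM with Nutlin-3 and 1.64 ± 0.0364 RPKM with DMSO. It did not pass (limma adjusted p = 0.0503), although its groups did not overlap, and it passed without Nutlin-3 replicate 1 (adjusted p = 0.0325). Per read of TRIM21 there were 9.90, 9.76 and 9.20 reads of TRIM22 in the Nutlin-3 libraries, against 2.71, 2.68 and 2.92 in the DMSO libraries.

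ISG15, a ubiquitin-like protein that is joined to other proteins and also secreted, was the next largest rise among genes tested on RPKM. ISG15 (ENSG00000187608) had 5.64, 6.32 and 6.24 RPKM with Nutlin-3, against 3.72, 3.51 and 3.73 RPKM with DMSO. All Nutlin-3 libraries stood above all DMSO libraries, and the change was 0.66 (SE 0.0505, limma adjusted p = 3.01e-04). IRF9, the DNA-binding subunit of ISGF3, had 3.20, 3.50 and 3.93 RPKM with Nutlin-3, against 3.00, 3.04 and 3.06 RPKM with DMSO. The Nutlin-3 libraries of IRF9 were all higher but spread widely, with replicate 3 the highest. IRF9 did not pass on RPKM (0.19, limma adjusted p = 0.0592) and rose on the reads (0.22, limma voom adjusted p = 8.26e-03). On RPKM it passed without Nutlin-3 replicate 1 (adjusted p = 0.0178), and on the reads it no longer passed once Nutlin-3 replicate 3 was left out (adjusted p = 0.0837). AL136295.5 covers 48.4% of the exon length of IRF9 on the same strand, so reads of the 2 genes may not be separable. Of the 3 known p53 targets, 2 rose on RPKM, where 29.1% of all genes did, and 3 on the reads, where 26.0% did.

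**Figure D2:**
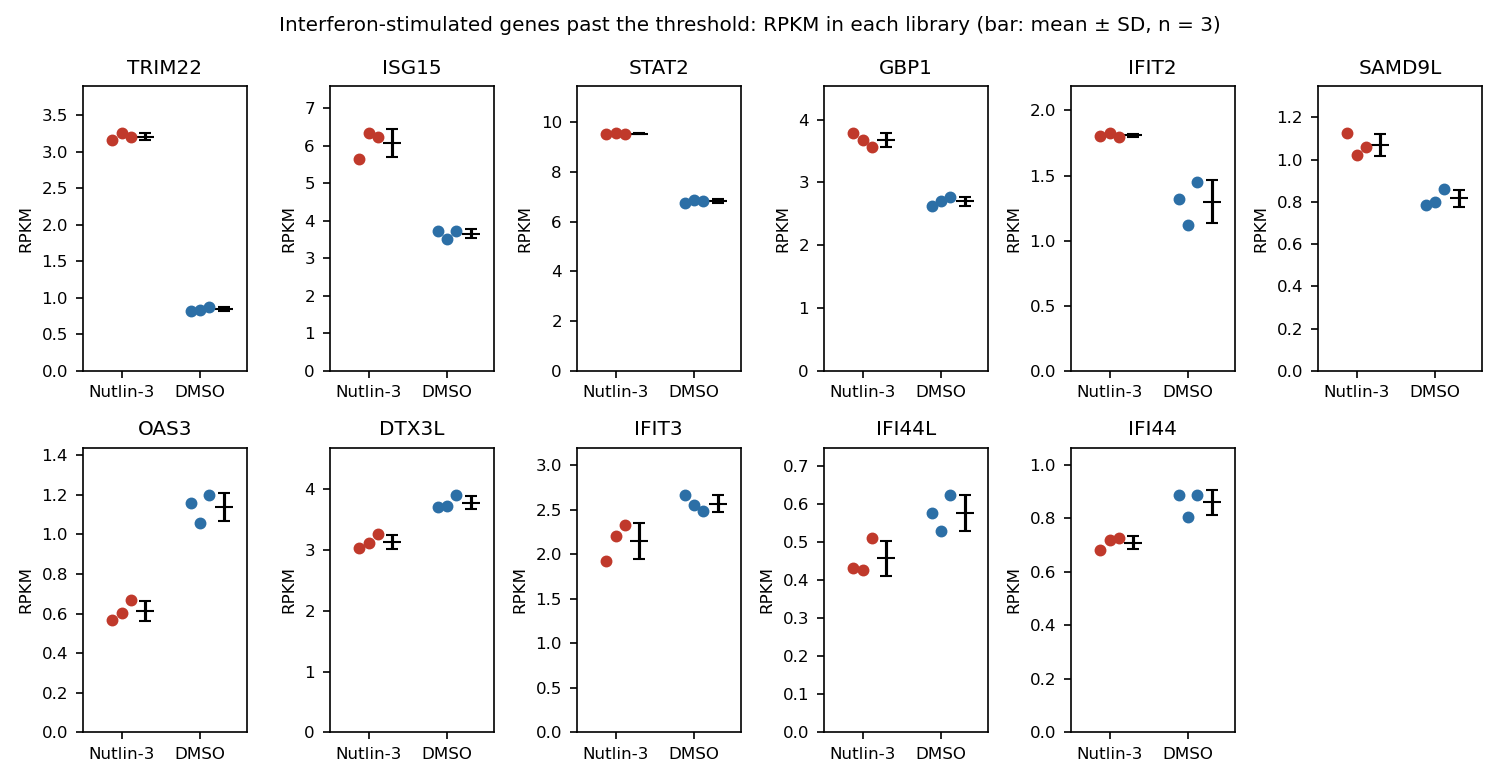
RPKM in each library of the 11 interferon-stimulated genes past the threshold on RPKM, Nutlin-3 in red and DMSO in blue, with mean ± SD (n = 3) beside the points. In each of the 11 panels the groups do not overlap, and TRIM22 shows the widest gap.

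The ISG15 system did not move one way. HERC5, the ligase that attaches ISG15, and USP18, the protease that removes it and restrains the interferon receptor, were under 0.5 RPKM and judged on the reads only. USP18 had 32, 39 and 31 reads with Nutlin-3, against 85, 37 and 56 reads with DMSO, which is 0.0368, 0.0396 and 0.0371 RPKM against 0.0731, 0.0452 and 0.0628 RPKM. In RPKM its groups did not overlap, and it fell by 0.67 on the log2 scale (SE 0.201, limma voom adjusted p = 7.35e-03). That call was lost without DMSO replicate 1, the highest library (-0.50, adjusted p = 0.0584). HERC5 averaged 0.180 ± 0.00364 RPKM with Nutlin-3 and 0.224 ± 0.0103 RPKM with DMSO (SD, n = 3 each), and fell on the reads (-0.31, limma voom adjusted p = 1.33e-03). HERC5, IFIH1, IFI6 and IFIT1 are named because of their values. UBA7, the enzyme that activates ISG15, is no member of the list and is also named after its values were seen. It averaged 3.34 ± 0.0276 RPKM with Nutlin-3 and 2.75 ± 0.0823 RPKM with DMSO, and rose (0.24, limma adjusted p = 1.12e-03).

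Among the transcription factors STAT2 rose. STAT2 (ENSG00000170581), the subunit that gives ISGF3 its activation domain, had 9.50, 9.54 and 9.53 RPKM with Nutlin-3, against 6.74, 6.88 and 6.83 RPKM with DMSO. Its libraries agreed closely within each group, and the change was 0.45 (SE 0.0227, limma adjusted p = 8.51e-05). IRF7, the factor that amplifies interferon gene transcription, had 53, 72 and 56 reads with Nutlin-3, against 57, 37 and 37 reads with DMSO. In RPKM these were 0.487, 0.583 and 0.535 with Nutlin-3, against 0.391, 0.360 and 0.331 with DMSO, without overlap. IRF7 rose on the reads (0.56, SE 0.170, limma voom adjusted p = 8.28e-03). IRF1, a factor that interferon-gamma induces, averaged 2.93 ± 0.150 RPKM with Nutlin-3 and 2.99 ± 0.0346 RPKM with DMSO. The groups of IRF1 overlapped, and the 95% interval of its change on the reads ran from -0.13 to 0.08 (limma voom adjusted p = 0.712).

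The IFIT genes, whose proteins bind viral RNA and stall its translation, lie beside each other on chromosome 10 and differed in direction. IFIT2 (ENSG00000119922) had 1.81, 1.82 and 1.797 RPKM with Nutlin-3, against 1.32, 1.12 and 1.45 RPKM with DMSO. It rose by 0.37 (SE 0.0683, limma adjusted p = 7.21e-03), with all Nutlin-3 libraries above all DMSO libraries. AL353751.1 covers 8.68% of the exon length of IFIT2 on the same strand. IFIT3 (ENSG00000119917) had 1.92, 2.20 and 2.32 RPKM with Nutlin-3, against 2.66, 2.55 and 2.48 RPKM with DMSO. It fell by 0.21 on the log2 scale (SE 0.0622, limma adjusted p = 0.0336), again without overlap. That call was lost without DMSO replicate 1, 2 or 3 (adjusted p = 0.0964, 0.0804 and 0.0595) and without Nutlin-3 replicate 2 (adjusted p = 0.0687). It was lost too when low genes were kept (adjusted p = 0.0840). On the reads IFIT3 passed whichever library was left out (limma voom adjusted p up to 9.33e-03).

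IFIT1 had 0.794, 0.801 and 1.02 RPKM with Nutlin-3, against 1.03, 0.906 and 1.11 RPKM with DMSO. The groups overlapped, since Nutlin-3 replicate 3 stood among the DMSO libraries. IFIT1 did not pass on RPKM (-0.15, limma adjusted p = 0.197) and fell on the reads (-0.24, limma voom adjusted p = 0.0336). Without Nutlin-3 replicate 3 it passed on RPKM (adjusted p = 0.0477). On the reads the call was lost without DMSO replicate 1 or 3 (adjusted p = 0.0521 and 0.137) and without Nutlin-3 replicate 1 or 2 (adjusted p = 0.157 and 0.190). IFIT5 averaged 4.70 ± 0.184 RPKM with Nutlin-3 and 4.34 ± 0.0930 RPKM with DMSO. Its groups did not overlap and it did not pass (0.10, limma adjusted p = 0.0534), but it did without Nutlin-3 replicate 1 (adjusted p = 0.0282).

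The IFIT genes were also set against each other within each library. For each read of IFIT3 there were 0.526, 0.464 and 0.433 reads of IFIT2 in the Nutlin-3 libraries, against 0.278, 0.246 and 0.327 in the DMSO libraries. The ratio did not overlap between the groups (2-sided exact permutation test p = 0.1, the smallest that 3 against 3 libraries allow, and 0.16 adjusted over 8 ratios chosen with values known). The ratio of IFIT1 to IFIT3 averaged 0.355 ± 0.0337 with Nutlin-3 and 0.347 ± 0.0406 with DMSO (SD, n = 3 each, exact permutation p = 0.8).

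**Figure D3:**
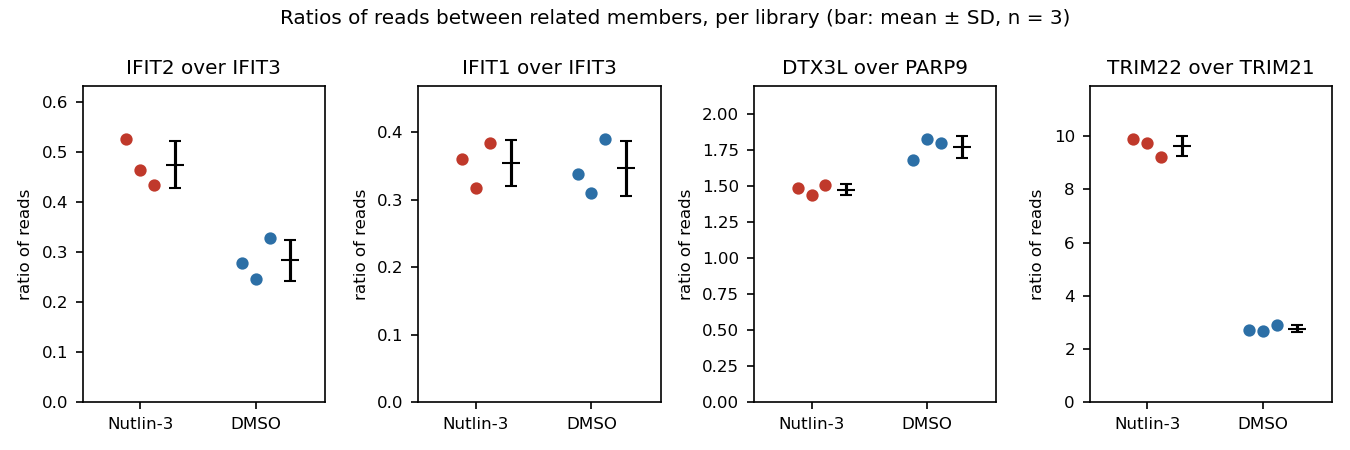
Ratio of recovered reads between related genes in each library, Nutlin-3 in red and DMSO in blue, with mean ± SD (n = 3). The ratios of IFIT2 to IFIT3, DTX3L to PARP9 and TRIM22 to TRIM21 do not overlap between the groups, and that of IFIT1 to IFIT3 does.

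OAS3, an enzyme that makes the 2′-5′ oligoadenylates that activate RNase L, showed the largest fall. OAS3 (ENSG00000111331) had 0.569, 0.603 and 0.667 RPKM with Nutlin-3, against 1.16, 1.06 and 1.199 RPKM with DMSO. The reads were 627, 754 and 707 with Nutlin-3, against 1710, 1102 and 1356 with DMSO. No library of one group reached the other, and the change was -0.56 (SE 0.0486, limma adjusted p = 4.46e-04) on log2(RPKM + 0.5) and -0.90 on the reads (95% interval from -1.02 to -0.78). Its relatives were scarce. OAS1 had between 6 and 19 reads per library and did not pass on the reads (limma voom adjusted p = 0.453), with an interval from -1.18 to 0.43. OAS2 and OASL had at most 7 reads in a library and were too low to judge.

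IFI44 and IFI44L, neighbouring genes on chromosome 1 whose products are induced by viral infection, both fell. IFI44 (ENSG00000137965) had 0.681, 0.720 and 0.726 RPKM with Nutlin-3, against 0.886, 0.806 and 0.888 RPKM with DMSO. The change was -0.17 (SE 0.0352, limma adjusted p = 0.0103) without overlap. IFI44L (ENSG00000137959) had 0.433, 0.428 and 0.512 RPKM with Nutlin-3, against 0.578, 0.530 and 0.625 RPKM with DMSO. All 3 Nutlin-3 libraries were lower, and the change was -0.17 (SE 0.0514, limma adjusted p = 0.0376). The RPKM call of IFI44L was lost without DMSO replicate 1 or 3 (adjusted p = 0.0912 and 0.101), without Nutlin-3 replicate 1 or 2 (adjusted p = 0.105 and 0.111). It was lost too when low genes were kept (adjusted p = 0.0906) or values were quantile-normalized (adjusted p = 0.0563). On the reads it fell by 0.34 on the log2 scale (limma voom adjusted p = 6.13e-04) and passed without any 1 library (adjusted p up to 0.0107).

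DTX3L and PARP9 encode a ubiquitin ligase and its partner ADP-ribosyltransferase, and start next to each other on opposite strands of chromosome 3. DTX3L (ENSG00000163840) had 3.03, 3.11 and 3.26 RPKM with Nutlin-3, against 3.70, 3.72 and 3.90 RPKM with DMSO, and fell (-0.24, SE 0.0354, limma adjusted p = 3.17e-03). PARP9 averaged 0.635 ± 0.0218 RPKM with Nutlin-3 and 0.639 ± 0.0261 RPKM with DMSO, and its groups overlapped. The 95% interval of the PARP9 change on the reads ran from -0.12 to 0.10 (limma voom adjusted p = 0.886). The ratio of DTX3L to PARP9 reads averaged 1.48 ± 0.0353 with Nutlin-3 and 1.77 ± 0.0769 with DMSO (SD, n = 3 each). That ratio did not overlap between the groups (2-sided exact permutation test p = 0.1, the smallest possible).

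The guanylate-binding proteins, GTPases that attack the vacuoles of pathogens, were higher with Nutlin-3. GBP1 (ENSG00000117228) had 3.78, 3.68 and 3.56 RPKM with Nutlin-3, against 2.63, 2.70 and 2.77 RPKM with DMSO, and rose by 0.38 (SE 0.0319, limma adjusted p = 3.88e-04). GBP2 was judged on the reads, with 159, 179 and 135 with Nutlin-3, against 112, 117 and 107 with DMSO. It had 0.114, 0.113 and 0.1002 RPKM with Nutlin-3, against 0.0598, 0.0886 and 0.0745 RPKM with DMSO, and rose (0.60, SE 0.128, limma voom adjusted p = 3.79e-04). GBP7 covers 9.89% of the exon length of GBP2 on the same strand.

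SAMD9L, an antiviral and growth-restraining protein, had 1.12, 1.02 and 1.06 RPKM with Nutlin-3, against 0.787, 0.801 and 0.863 RPKM with DMSO. It rose (0.25, SE 0.0377, limma adjusted p = 3.14e-03), with the groups apart. Its neighbour SAMD9 had between 33 and 46 reads with Nutlin-3 and between 41 and 59 reads with DMSO, and did not pass (-0.17, limma voom adjusted p = 0.521). The interval of SAMD9, from -0.58 to 0.25, is wide because of its few reads, so its change is poorly bounded at this depth.

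Of the remaining effectors, IFI27 and IFI6 encode small mitochondrial or membrane proteins. IFI27 had 39, 37 and 43 reads with Nutlin-3, against 88, 53 and 67 reads with DMSO. This was 0.104, 0.0872 and 0.119 RPKM with Nutlin-3, against 0.176, 0.150 and 0.174 RPKM with DMSO, and IFI27 fell on the reads (-0.71, SE 0.174, limma voom adjusted p = 1.52e-03). IFI6 had 1.37, 1.48 and 2.18 RPKM with Nutlin-3, against 1.253, 1.07 and 1.09 RPKM with DMSO. Replicate 3 of the Nutlin-3 group stood apart from the others, and IFI6 did not pass on RPKM (0.40, limma adjusted p = 0.0663). It rose on the reads (0.51, limma voom adjusted p = 1.25e-03). On RPKM it passed without Nutlin-3 replicate 1 (0.49, adjusted p = 0.0486) and without Nutlin-3 replicate 3, where the change was 0.24 (adjusted p = 0.0384). IFI35, an adaptor that pairs with NMI, averaged 1.43 ± 0.0906 RPKM with Nutlin-3 and 1.41 ± 0.0718 RPKM with DMSO, and overlapped between the groups (limma adjusted p = 0.841).

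IFIH1 (MDA5, a sensor of double-stranded RNA), MX1, ISG20, XAF1, OAS1 and SAMD9 were judged on the reads alone and did not pass. Their estimates lay between -0.37 and -0.06 on the log2 scale, and their 95% intervals reached from -1.18 to 0.48. All 6 overlapped between the groups. PRAL covers 38.3% of the exon length of XAF1 on the opposite strand. IFIH1 was the only one of these 6 with a mean of more than 100 reads, with 268, 373 and 289 reads with Nutlin-3 and 402, 293 and 348 reads with DMSO. MX2, OAS2, OASL, BST2 and RSAD2 had a mean of fewer than 10 reads per library, between 1 and 8 in the Nutlin-3 and between 1 and 9 in the DMSO libraries. These 5 were too low to judge. They include RSAD2 and BST2, antiviral proteins known as strongly inducible by interferon.

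Levels were compared between genes per kilobase of exon, from the recovered reads and the merged exon length. Whether reads in introns were counted is not known. If they were, this measure is too high for genes with long introns, and the ranks may depend on it. STAT2 was the highest of the 35 in both groups, at an exon-based RPKM of 28.9 ± 0.0672 with Nutlin-3 and 20.7 ± 0.217 with DMSO (SD, n = 3 each). TRIM22 was at 25.2 ± 0.369 with Nutlin-3 and 6.64 ± 0.200 with DMSO, which placed it at rank 2 with Nutlin-3 and rank 8 with DMSO. IFIT3 was at 10.6 ± 1.01 with Nutlin-3 and 12.7 ± 0.451 with DMSO, at rank 4 and rank 2 of the same orders. ISG15 was at 7.21 ± 0.444 with Nutlin-3 and 4.34 ± 0.146 with DMSO, rank 8 and rank 13. At the other end MX2 was at 0.0157 ± 0.00345 with Nutlin-3 and 0.0148 ± 0.00578 with DMSO.

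**Figure D4:**
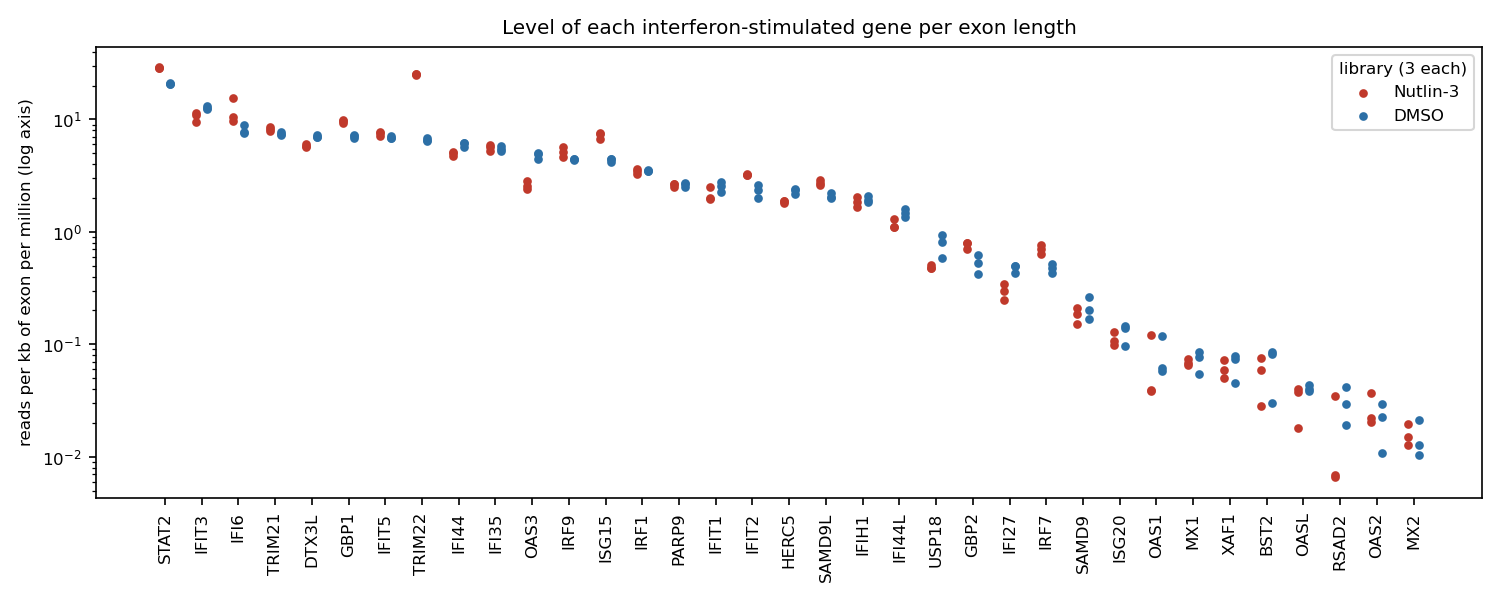
Exon-based RPKM (reads scaled by merged exon length and library size) of each of the 35 interferon-stimulated genes on a log axis, 3 Nutlin-3 libraries in red and 3 DMSO libraries in blue, ordered by the DMSO mean. The genes span from STAT2 at 28.9 with Nutlin-3 and 20.7 with DMSO to MX2 at 0.0157 with Nutlin-3 and 0.0148 with DMSO.

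The promoters were examined for the ISRE, a site through which interferon is known to act on such genes. RefSeq promoter windows (build GRCh38.p14, 250 bases before to 50 after the start) were at hand for 27 of the 35 genes, and TRIM22, IFIT2, GBP2, IRF7 and USP18 were among the 8 others. The ISRE core searched was GAAA and GAAA with NN between them (N is any base), on both strands, overlapping matches included. It was in a window of 20 of the 27 genes and in 68.6% of their 35 windows, against 3.57% of all 35116 windows. Of the 8 genes that fell on the reads and had a window, 8 held the core, and of the 6 that rose, 3 held it. It was in 7 of the 11 genes without a call and in 2 of the 2 that were not tested. The 3 that rose without it were STAT2, IRF9 and SAMD9L. These counts are a description of few genes, and PARP9 and DTX3L share part of their windows. Genes that rose lacked a window more often (TRIM22, IFIT2, GBP2 and IRF7) than genes that fell (USP18), so the counts may depend on the windows at hand. The GAS (gamma-activated site) core TTCNNNGAA was in a window of 7 of the 27 genes and in 22.9% of their windows, against 7.66% of all windows. The p53 half-site was in a window of 3, ISG15, IFIT3 and TRIM21, and in 8.57% of the 35 windows, against 6.63% of all windows. For IFIT3 it was in another window than the one printed here.

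The following windows are examples of each kind, a rising gene with the core (ISG15, chr1:1013247-1013546, plus strand), a rising gene without it (STAT2, chr12:56360058-56360357, minus strand) and 2 that fell (OAS3, chr12:112938224-112938523, plus strand, and IFIT3, chr10:89327747-89328046, plus strand). Each is written 5′ to 3′ on the strand of its gene, and capitals mark ISRE cores on either strand. In ISG15 2 cores overlap.
ISG15: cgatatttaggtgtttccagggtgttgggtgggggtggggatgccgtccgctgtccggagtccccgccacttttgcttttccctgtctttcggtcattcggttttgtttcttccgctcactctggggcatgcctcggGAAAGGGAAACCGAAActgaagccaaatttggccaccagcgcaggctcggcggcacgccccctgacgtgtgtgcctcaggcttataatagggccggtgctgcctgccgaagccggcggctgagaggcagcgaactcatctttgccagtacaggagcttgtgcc
STAT2: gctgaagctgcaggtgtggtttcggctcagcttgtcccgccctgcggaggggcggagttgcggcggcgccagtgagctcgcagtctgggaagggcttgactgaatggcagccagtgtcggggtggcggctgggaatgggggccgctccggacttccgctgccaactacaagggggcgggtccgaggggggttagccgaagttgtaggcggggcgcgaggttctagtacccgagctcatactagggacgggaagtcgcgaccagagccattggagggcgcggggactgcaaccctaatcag
OAS3: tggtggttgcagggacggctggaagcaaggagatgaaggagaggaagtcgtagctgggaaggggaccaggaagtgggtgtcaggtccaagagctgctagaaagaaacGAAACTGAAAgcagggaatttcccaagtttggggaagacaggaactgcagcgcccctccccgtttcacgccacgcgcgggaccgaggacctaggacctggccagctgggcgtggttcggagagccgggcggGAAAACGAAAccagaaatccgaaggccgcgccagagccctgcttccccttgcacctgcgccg
IFIT3: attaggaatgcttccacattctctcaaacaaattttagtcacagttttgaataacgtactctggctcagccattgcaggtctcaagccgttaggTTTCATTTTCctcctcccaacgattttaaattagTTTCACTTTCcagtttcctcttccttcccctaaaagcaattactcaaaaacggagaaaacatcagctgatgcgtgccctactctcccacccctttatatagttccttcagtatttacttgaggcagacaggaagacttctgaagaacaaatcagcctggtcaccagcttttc

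Other genes of the interferon pathway were taken from lists of 97 names, of which 95 matched an ID. Of 55 tested on RPKM, 24 rose and 5 fell, and their log2 fold changes had a median of 0.08, against 0.02 over all genes tested. The share called in either direction, 52.7%, was near the 51.6% of all genes. By direction it was not, since 24 of 55 upwards is more than the 29.1% of all genes and 5 of 55 downwards is less than 22.5%. The lists were chosen with earlier results of these data known, so this difference is a description only. On the reads 32 of 77 rose and 16 fell, or 62.3% called, against 50.3% of all genes (26.0% upwards and 24.3% downwards). With median-of-ratios scaling the RPKM counts were 20 and 11, and the shares of all genes under that scaling were not taken. Of 9 interferon genes, IFNE, an interferon of epithelia, was the 1 tested, at 5.64 ± 0.363 RPKM with Nutlin-3 and 5.11 ± 0.206 RPKM with DMSO (limma adjusted p = 0.0938). The other 8, with IFNB1 and IFNG among them, had 0 reads in every library.

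Beside the counts of these lists, 29.1% of all genes rose and 22.5% fell on RPKM, and 26.0% rose and 24.3% fell on the reads. Among receptors and kinases 3 of 6 tested on RPKM rose and 1 fell, and on the reads 3 of 9 rose and 2 fell. The kinase JAK1 rose 1.201-fold (limma adjusted p = 3.48e-03), the shared receptor chain IL10RB 1.24-fold (adjusted p = 8.24e-03) and the interferon-gamma receptor IFNGR1 1.13-fold (adjusted p = 0.0219). IFNGR1 no longer passed without Nutlin-3 replicate 1, 2 or 3 (adjusted p = 0.0511, 0.0680 and 0.0692) and under median-of-ratios scaling (adjusted p = 0.0649). TYK2, the kinase bound to the type I receptor, fell to 85.3% of its DMSO level (limma adjusted p = 3.87e-03). Among sensors and adaptors 2 of 9 tested on RPKM rose and 1 fell, and on the reads 6 of 13 rose and 2 fell. TMEM173, which encodes the adaptor STING, rose 1.28-fold and TICAM1, the adaptor of TLR3, 1.34-fold (limma adjusted p = 6.43e-03 and 1.03e-03). EIF2AK2, the RNA-activated kinase PKR, fell to 90.2% (adjusted p = 0.0243). That call was lost without DMSO replicate 1 or 3 and without Nutlin-3 replicate 1, 2 or 3 (adjusted p from 0.0564 to 0.0721).

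Of 7 STATs, IRFs and regulators tested on RPKM 4 rose and none fell, while on the reads 5 of 11 rose and 2 fell. PIAS1, an inhibitor of STAT signalling, fell to 78.7% of its DMSO level (limma voom adjusted p = 2.15e-06) and the repressor IRF2 to 88.2% (adjusted p = 8.16e-03). STAT3, the factor through which interleukin-6 signals, rose 1.30-fold (limma adjusted p = 1.08e-03). SOCS1, the feedback inhibitor of JAK kinases, had between 30 and 50 reads with Nutlin-3 and between 19 and 25 reads with DMSO and rose (limma adjusted p = 0.0205). Its call was lost without DMSO replicate 1 or 2 (adjusted p = 0.0664 and 0.0603), without Nutlin-3 replicate 2 (adjusted p = 0.0626) and without a filter (adjusted p = 0.0604). In antigen presentation 7 of 11 tested on RPKM rose and none fell, while on the reads 8 of 15 rose and 2 fell. For both lists, the shares of all genes were 29.1% upwards and 22.5% downwards on RPKM, and 26.0% and 24.3% on the reads. The immunoproteasome subunit PSMB9 fell to 69.5% of its DMSO level (limma voom adjusted p = 1.24e-05) and the transporter subunit TAP2 to 91.9% (adjusted p = 0.0225). The editor of peptide loading TAPBP rose 1.39-fold, the peptide transporter TAP1 1.404-fold and HLA-E 1.34-fold (limma adjusted p = 4.55e-04, 3.06e-04 and 2.34e-04). HLA genes resemble each other, so reads may be split between them.

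Of 21 other interferon-stimulated genes tested on RPKM, 8 rose and 3 fell, and on the reads 10 of 28 rose and 8 fell. The share called on RPKM, 52.4%, was near the 51.6% of all genes (29.1% upwards and 22.5% downwards). On the reads it was 64.3%, against 50.3% (26.0% upwards and 24.3% downwards). The 3 IFITM genes, whose proteins block viral entry at membranes, rose, with IFITM1 1.71-fold, IFITM3 1.63-fold and IFITM2 1.56-fold (limma adjusted p = 7.30e-04, 3.70e-04 and 1.79e-04). They are close paralogs, which the authors' counting could split. APOL6, an apolipoprotein L gene, fell to 59.7% of its DMSO level, PLSCR1, a phospholipid scramblase, to 67.8%, and RNF213, a large ubiquitin ligase, to 89.1% (limma adjusted p = 1.11e-03, 1.05e-03 and 0.0120).

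Outside the 35 genes, TLR3, a sensor of double-stranded RNA, IRF5 and IFI16 are further known p53 targets. The other pathway genes, TAP1 among them, were not sorted by whether p53 targets them. IRF5 had 153, 168 and 137 reads with Nutlin-3, against 148, 99 and 116 reads with DMSO, and rose per library size (0.43, limma voom adjusted p = 1.72e-03). TLR3 had 286, 344 and 279 reads with Nutlin-3, against 312, 207 and 241 reads with DMSO, and rose too (0.35, limma voom adjusted p = 6.25e-04). IFI16, a nuclear DNA sensor, averaged 1.14 ± 0.0416 RPKM with Nutlin-3 and 1.17 ± 0.0450 RPKM with DMSO, and overlapped between the groups (limma adjusted p = 0.553). The changes of IRF5 and TLR3 were smaller than that of TRIM22, whose 95% interval on the reads begins at 1.85.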

How the data were processed

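Poly(A) RNA of 6 RPE1 libraries was sequenced from stranded libraries, per the labels' protocols. The authors deposited RPKM, 1 column per library, each matched to a title. The build hg19 and the tools edgeR, TopHat2 and CASAVA 1.8.2 are named, per the submitters' processing notes, and no source used here gives the counter, annotation or strand setting. Whether replicates were separate cultures is not stated in the labels, so the p-values reflect spread among libraries that may be technical alone.

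With the gene span of GENCODE 29, 84.5% of low values gave whole reads (tolerance 0.01), against 26.4% with exon length. Whole reads came from that span for 27538 genes and from ratios between libraries for 8825, where they could be too low by a whole factor. Libraries were compared with limma 3.58.1 in R 4.3.3 on log2(RPKM + 0.5), for genes averaging 0.5 RPKM or more, a mean-variance trend and group as the only term. The pseudocount shrinks log2 changes of low genes, and fold changes and percentages are ratios of mean RPKM. The RPKM of long genes are low, so limma voom on recovered reads (mean of at least 10, the authors' library sizes) was the alternative, and a gene under 10 reads was called too low to judge. Both fits were tested on simulated counts of genes averaging 0.5 RPKM or more, which leaves out the genes judged on reads only. Replicates differed by more than sampling noise.

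The genes, lists and ratios were chosen with earlier results of these data known. Full values are given for genes past the threshold on RPKM and, for genes on reads only, past it with at least a 1.25-fold change. Of the remaining genes the 6 with the most reads (IFIT5, IRF1, PARP9, IRF9, TRIM21 and IFI35) were named as examples. Up to 3 genes in each direction on RPKM were named per pathway list, and PSMB9, TAP2, PIAS1 and IRF2, which fell on the reads alone, were added after their values were seen. 1 gene that this rule names is not reported here. Symbols and overlaps came from GENCODE 29 and a gene name table. Alternatives were other pseudocounts, filters and scalings, a replicate block and leaving out each library.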

Additional observations from a re-analysis of the deposited data

How the results depend on the processing

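Of the 35 genes, 6 rose and 5 fell on RPKM. The share of all genes called was taken only for the main fits on RPKM and on the reads. Counts under other settings are given without it, and whether all genes shifted alike was not tested. limma voom on the recovered reads, which tests 30 genes in place of 19, gave 10 and 9, and with TMM scaling also 10 and 9. TMM scaling lay close to the authors' library sizes (IFIT2 0.4703 against 0.4798), so equal counts say little about other scalings. Scaling by the recovered read totals alone was not tried. A minimum mean of 1 RPKM, which tests 13, left 5 that rose and 2 that fell. Quantile normalization gave 9 that rose, with IRF9, TRIM21 and IFIT5 past the threshold (adjusted p = 0.0388, 0.0278 and 0.0376). Leaving out 1 library gave 6 to 10 that rose and 3 to 6 that fell, with 10 without Nutlin-3 replicate 1 and 3 without DMSO replicate 1, DMSO replicate 3 or Nutlin-3 replicate 2. On the reads, leaving out 1 library, chosen after seeing the data, gave 9 to 11 and 7 to 9. Of the pathway genes 24 rose and 5 fell. The falls numbered 11 under median-of-ratios scaling, 16 on reads, 18 on reads with TMM scaling and 3 with the replicate block, and the rises 19 to 25 and falls 4 to 6 when 1 library was left out.

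Without being past the threshold, IFI35 turned to -0.0108 under median-of-ratios scaling and PARP9 to 0.0223 under quantile normalization. With 1 library left out, the log2 fold change ranged from -0.0158 to 0.0507 for IFI35, from -0.0233 to 0.0116 for PARP9 and from -0.0529 to 0.01 for IRF1 on RPKM. On reads it turned to -0.0013, -0.0115, -0.0016 and -0.0245 for IFI35, to 0.0137 and 0.0168 for PARP9, to 0.0111 for IRF1, to 0.0534 for MX1, to 0.0009 for IFIH1, to 0.0145 for XAF1 and to 0.003 for SAMD9, each without 1 library. The cause was not tested. Replicate numbers did not pair the libraries (correlations of deviations between -0.02 and 0.02 for equal numbers). With the replicate block 6 of the 35 genes rose and 4 fell on RPKM, and IFIT3 was the call lost (adjusted p = 0.0869). Among pathway genes named, IFNGR1, EIF2AK2 and RNF213 no longer passed with the block (adjusted p = 0.0563, 0.0684 and 0.0533). Few reads limit the 5 genes too low to judge.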
